A study of Mus musculus with 6 samples.

Results

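The stretch of chromosome 12 from 18 to 24 Mb (mm39) held 206 of the 94951 regions in which CTCF peaks of the 6 libraries lay. A region is a set of peaks joined by an overlap of 1 bp, and every region that touched the stretch was kept, with no filter on strength. The stretch itself was chosen by measured values, namely its higher peak density in wild-type than in Cgas knockout lists. Every comparison of the genotypes inside it is therefore a description and carries no test. The last region before the stretch, chr12:17987915-17991949, and the first one in it, chr12:18073584-18077603, were each called in 1 WT list, at heights of 1.0 and 0.69 times the list median. At the other edge, the last region inside (chr12:23930202-23932409, height 1.18) and the first outside (chr12:24190883-24194994, height 0.71) were each called in 1 Cgas_KO list.

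The libraries were CUT&RUN profiles of CTCF in regulatory T cells of the mouse thymus, in which an antibody directs a nuclease to the bound protein and the released DNA is sequenced. There were 3 libraries from wild-type mice (WT) and 3 from Cgas knockout mice (Cgas_KO), with 1 peak list each. Both groups share the tissue, cell type, antibody target and protocol in the labels. The labels used here name no strain, sex, age, knockout allele or pooling of animals, nor do they say whether replicates are separate animals, so errors may be technical. The genotype labels could not be checked in these lists, and genes and DNA sequence at the regions were not used here, since the gene table at hand is of another build.

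CTCF is a zinc-finger protein that binds a long DNA motif and stops the cohesin ring from extruding further chromatin, so that pairs of bound sites often mark the ends of loops and domains. A typical CTCF site is therefore narrow, with its highest signal over the motif. Regulatory T cells restrain other immune cells, and those formed in the thymus carry the transcription factor Foxp3. cGAS, the product of the deleted gene, is an enzyme that senses DNA in the cytosol and signals through STING.

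The 6 lists held 27128 to 31707 peaks on chromosomes 1 to 19, X and Y. The list of Cgas_KO replicate 3 was the longest, and its peaks were narrow, 2569 bp at the median against 3219 to 3607 bp in the others. Read depth is unknown. Heights are the maximum signal of a peak divided by the median height of its own list. That median was 11 to 14 steps, a step being the unit of which heights were whole multiples in each list.

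The WT lists had about 3 peaks in the stretch for each Cgas_KO peak. The WT lists held 94, 95 and 84 peaks in it, and the Cgas_KO lists 27, 27 and 36. The groups did not overlap. Peaks covered 7.82%, 7.43% and 7.24% of its length in the WT lists and 1.65%, 1.57% and 1.65% in the Cgas_KO lists. Both genotypes differed here from their own flanks, and in opposite directions. In WT the stretch was covered at 7.50% ± 0.295, its left flank (12 to 18 Mb) at 3.04% ± 0.172 and its right flank (24 to 30 Mb) at 2.55% ± 0.115 (SD, n = 3). In Cgas_KO the stretch was covered at 1.62% ± 0.0438, the left flank at 2.97% ± 0.111 and the right flank at 3.22% ± 0.0853 (SD, n = 3).

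**Figure D1:**
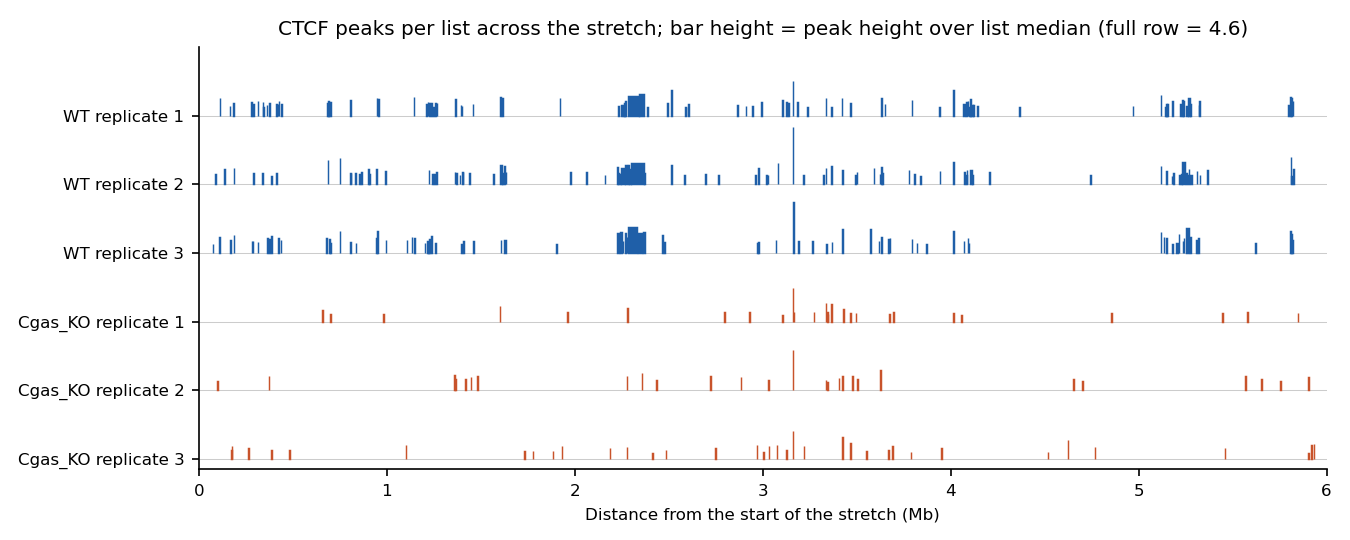
Peaks of the 6 lists against distance from the start of the stretch in Mb, with 1 row per library and bar height giving peak height over the list median. Bars have a minimum drawn width. The 3 WT rows show dense groups of low peaks that are thin or missing in the 3 Cgas_KO rows, and all 6 rows share a tall bar near the middle, 2.18 to 4.54 times the list median.

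The difference filled the stretch unevenly. In bins of 1 Mb, every WT list was covered more than every Cgas_KO list in 5 of the 6 bins, the exception being 22 to 23 Mb, where WT replicates covered 5.29%, 3.39% and 1.22% and Cgas_KO replicates 1.26%, 0.87% and 0.72%. The largest gap was at 20 to 21 Mb, with 14.6% ± 0.939 in WT and 1.59% ± 0.256 in Cgas_KO (SD over 3 lists). The smallest gap among the separated bins was at 21 to 22 Mb, with 5.72% ± 0.376 and 3.6% ± 0.988. The bin next to the stretch on its left, 17 to 18 Mb, had overlapping values of 5.52% ± 0.858 in WT and 4.94% ± 0.215 in Cgas_KO. On its right, 24 to 25 Mb overlapped too, at 4.18% ± 0.185 and 4.59% ± 0.609. Cover of the 2 genotypes thus met again in the first 1 Mb bin on each side. Farther out, every WT list was higher at 12 to 13 Mb, and every Cgas_KO list at 25 to 26 Mb.

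**Figure D2:**
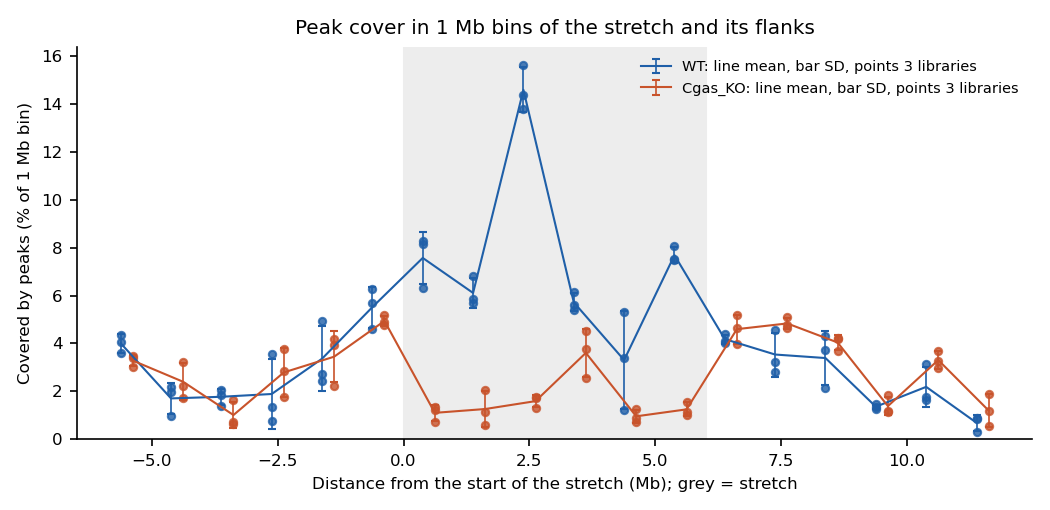
Percent of each 1 Mb bin covered by peaks, against distance from the start of the stretch in Mb. Points are single libraries, lines the mean of 3 libraries per genotype and bars the SD, with the stretch in grey. WT stands at 3.30 to 14.6% and Cgas_KO at 0.951 to 3.6% on average within the stretch, while the lines lie closer together in the flanks.

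Finer segments of 500 kb showed where the lists met again. WT was above Cgas_KO without overlap in 9 of 12 segments. The share of such bins over the genome was not computed at 500 kb or 1 Mb, so neither count has a background. Within the stretch the share rose with bin size, from 30% at 100 kb to 43.3% at 200 kb. The stretch was chosen for this difference, so the counts at both sizes only describe it. The largest difference was at 20 to 20.5 Mb, with 25.1% ± 2.18 against 1.84% ± 0.741, followed by 23.0 to 23.5 Mb with 12.8% ± 0.327 against 0.517% ± 0.454 (SD, n = 3). At 21.0 to 21.5 Mb the groups overlapped, with WT lists at 7.61%, 6.67% and 4.57% and Cgas_KO lists at 7.29%, 4.01% and 4.15%. They also overlapped at 23.5 to 24 Mb. One segment went the other way, 22.5 to 23.0 Mb, where peaks were scarce in all lists, with 1, 1 and 0 peaks in the WT lists and 1, 2 and 3 in the Cgas_KO lists.

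Whether the excess stood in blocks or at single sites was read from bins of 100 kb. Of 60 bins, 57 held a peak, and 18 of these were covered more in every WT list than in any Cgas_KO list. Over the genome 3.8% of bins with a peak met that condition, but the stretch was picked for this difference, so the count is not evidence of it. The opposite condition, with a genome share of 3.37%, was met by 0 bins of the stretch. In the flanks, 2 of 120 bins were higher in WT and 9 in Cgas_KO by the same rule.

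The 18 bins formed 11 runs. The 3 longest, of 3 bins each, lay at 18.2 to 18.5, 18.7 to 19 and 23.1 to 23.4 Mb, and 1 run of 2 bins lay at 20.2 to 20.4 Mb. Over the genome 5 of the 875 runs reached 3 bins, those 3 included. The bin at 18.7 to 18.8 Mb counted on 1.415% in WT replicate 1 against 1.037% in Cgas_KO replicate 1. Both values were the ends of peaks crossing the bin edge, chr12:18691729-18701415 and chr12:18697347-18701037. The length of that run thus depended on where the edge fell. The stretch was chosen for the difference that makes up these runs, so their length only describes it. The other 7 runs of the stretch were single bins, at 19.2, 19.6, 20.9, 21.2, 21.6, 22.0 and 23.8 Mb. In the 18 bins WT peaks covered 325 ± 7.84 kb and Cgas_KO peaks 24.3 ± 13.6 kb (SD, n = 3). In the other 42 bins they covered 124 ± 24.6 kb and 73.0 ± 11.8 kb. The bins held 68.2%, 72.2% and 77.0% of the length covered in WT replicates 1, 2 and 3. Most of the WT length thus stood in these bins, which were set apart by the difference itself.

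**Figure D3:**
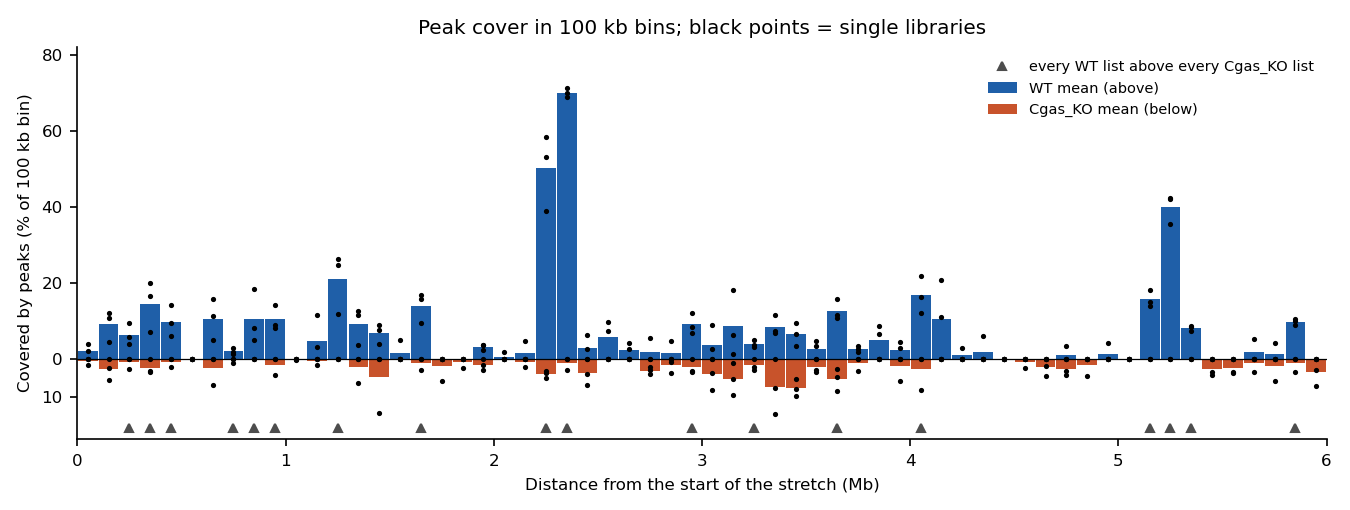
Percent of each 100 kb bin covered by peaks, WT means upward and Cgas_KO means downward, against distance from the start of the stretch in Mb. Black points are single libraries and triangles mark the 18 bins in which every WT list exceeds every Cgas_KO list. WT cover rises in separate blocks, the highest at 70.0% of a bin near 2.35 Mb. Unmarked bins average 2.96% in WT and 1.74% in Cgas_KO. Some unmarked bins have a higher WT mean (10.7% at 18.6 to 18.7 Mb) than some marked ones (2.02% at 18.7 to 18.8 Mb).

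Region by region, 136 of the 206 members were called in more WT than Cgas_KO lists (66.0%, against 40.1% over the genome). Another 59 were called in more Cgas_KO than WT lists (28.6%, against 45.4%) and 11 in as many of each. Members of 1 list made up 64.1%, below the 69.9% over the genome, with 77 in 1 WT list and 55 in 1 Cgas_KO list. Regions repeated in 2 or 3 lists of a genotype and absent from the other numbered 51 of the 206 for WT (3.02% of regions over the genome) and 2 for Cgas_KO (3.26% over the genome). Members of 2 WT lists and no Cgas_KO list made up 15.5% (2.64% over the genome), and those of 3 WT lists 9.22% (0.377%). In the flanks the same counts of repeated regions were 6 and 7 on the left and 5 and 7 on the right. The stretch was chosen for this contrast, so the counts describe it and are not evidence of it.

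Neighbouring members leaned the same way. Following the order of positions, the 136 WT-leaning members fell into 40 runs, and 98 of them (72.1%) stood in the 12 runs of at least 3. In the left flank 22 of 79 such regions (27.8%) and in the right flank 16 of 65 (24.6%) stood in runs of that length. A run grows longer wherever WT-leaning regions are the majority, so this measure is bound up with the choice of the stretch. The longest run in the left flank had 5 regions, in the right flank 6, and in the stretch 19. Runs also count regions of 1 WT list, which made up 10 of those 19, with 9 in 2 or 3 WT lists. The runs chr12:19976329-20162612 (3 regions, all of WT replicate 2) and chr12:21572982-21623798 (4 regions) held only regions of 1 WT list. A run is therefore not always a block repeated among WT lists.

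That longest run, chr12:22967497-23366997, spanned 399.5 kb. WT replicates 1, 2 and 3 had 14, 14 and 12 peaks in it, covering 66.3, 64.7 and 65.0 kb, and all 3 Cgas_KO lists had 0. Its core began at chr12:23116383-23120904, after 145 kb without a peak in any list. The heights of this first core region were 1.64, 1.46 and 1.62 list medians in WT replicates 1, 2 and 3. The next regions of all 3 WT lists were lower, chr12:23147403-23151846 at 0.93, 1.08 and 1.15 and chr12:23175552-23180159 at 1.14, 0.62 and 0.69. Further along, chr12:23213409-23222600 had heights of 0.93, 0.77 and 1.46, and chr12:23232058-23246530 had 1.21, 1.77 and 1.15. The run then reached its widest member, chr12:23249124-23272330, 23207 bp wide with heights of 1.43, 1.23 and 2.0. It was followed at once by chr12:23273077-23282665 at 0.93, 0.77 and 1.23. Heights of these 7 regions ran from 0.62 to 2.0 in lists whose median peak stands at 1, and 4 of the 7 were over 9 kb wide.

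A run near the right edge had the shortest span among the 12 runs of at least 3. In chr12:23795790-23823965, a span of 28.2 kb, WT peaks covered 46.6%, 35.1% and 37.4% and no Cgas_KO list had a peak. Its 3 regions of all WT lists were chr12:23805672-23810374 (heights 1.5, 2.15 and 1.69 in WT replicates 1, 2 and 3), chr12:23810881-23815162 (1.36, 0.62 and 1.46) and chr12:23816469-23823965 (1.14, 1.23 and 1.0). The first of them had its maximum at nearly the same place in all 3 WT lists, within 77 bp.

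On the left side, runs of 17, 12 and 11 regions lay at chr12:19105050-19410123, chr12:18676511-18957410 and chr12:18276619-18440543. In the first, WT peaks covered 42.4, 28.0 and 43.1 kb and Cgas_KO peaks 0, 6.38 and 0 kb. Its regions of all 3 WT lists and no Cgas_KO list were chr12:19220873-19230633 (1.0, 1.15 and 1.08) and chr12:19236069-19243686 (1.0, 0.85 and 1.31). In the second, WT lists covered 30.3, 36.5 and 28.8 kb and Cgas_KO lists 3.69, 0 and 0 kb. Here such regions were chr12:18802871-18811241 (1.21, 0.92 and 0.85) and chr12:18943836-18951867 (1.36, 1.23 and 1.69). The third run held chr12:18285335-18291810, at 0.93, 0.92 and 0.92, and nearby stood chr12:18182155-18187252 at 1.0, 1.31 and 1.38. Farther right, a run of 9 regions at chr12:22067331-22370764 held chr12:22067331-22076473, at 0.93, 1.0 and 0.92. Its cover differed among WT replicates, 45.9, 26.9 and 9.63 kb, with 0 kb in every Cgas_KO list.

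The remaining 2 regions of all 3 WT lists and no Cgas_KO list were chr12:20226012-20234835, at 0.79, 1.38 and 1.54, and chr12:21628246-21639550, at 1.36, 1.38 and 1.23. That makes 19 such members, 9.22% of 206. Over the genome 0.377% of regions were of this kind, and 0.33% were in all 3 Cgas_KO lists and no WT list, of which the stretch held 0. Since this contrast led to the choice of the stretch, the share says nothing further about it. As merged regions the 19 were wide, with a median of 8032 bp against 4833.5 bp for the 358 such regions of the genome, those 19 included. Single peaks in them were narrower, with medians of 4663, 3728 and 3787 bp in WT replicates 1, 2 and 3. The medians of the whole lists were 3568, 3219 and 3607 bp. The 19 were not tall. The median height of peaks in them was 1.14, 0.96 and 1.19 list medians in WT replicates 1, 2 and 3, and none exceeded 2.15.

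The widest member was a block in its own right. Region chr12:20240089-20375855 measured 135767 bp and was the 6th widest of the genome. It was formally called in all 6 lists, but WT replicates 1, 2 and 3 had 6, 7 and 8 peaks over 75.0%, 88.1% and 85.5% of it, while Cgas_KO replicates 1, 2 and 3 had 1, 2 and 1 over 3.72%, 4.86% and 2.34%. The covered length was 112 ± 9.39 kb in WT and 4.94 ± 1.71 kb in Cgas_KO (SD, n = 3). A call of a region therefore hid a large difference in extent. Its broadest WT peaks, chr12:20284648-20339225, chr12:20301093-20366404 and chr12:20284964-20331499, were 54578, 65312 and 46536 bp long in WT replicates 1, 2 and 3. They ranked 12, 1 and 14 by width among all peaks of their lists. Their heights were still modest, the tallest peak of the region being 1.71, 1.69 and 2.08 list medians in WT and 1.07, 1.38 and 0.91 in Cgas_KO.

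Each Cgas_KO list had a peak at the same place within this block, wider than the median peak of its list. These peaks were chr12:20277306-20282356 in replicate 1, chr12:20275968-20279654 in replicate 2 and chr12:20276874-20280055 in replicate 3, and replicate 2 had a further one at chr12:20355042-20357953. In WT replicate 3 a peak of 2747 bp lay there too, chr12:20276955-20279701, apart from the broad ones. In WT replicate 2 a peak of 10393 bp, chr12:20268651-20279043, reached into the place. WT replicate 1 had no peak there, its nearest being chr12:20267437-20274717 and chr12:20284648-20339225. Without this region the stretch was covered at 5.62% ± 0.437 in WT and 1.54% ± 0.0699 in Cgas_KO (SD, n = 3), so the groups still did not overlap.

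**Figure D4:**
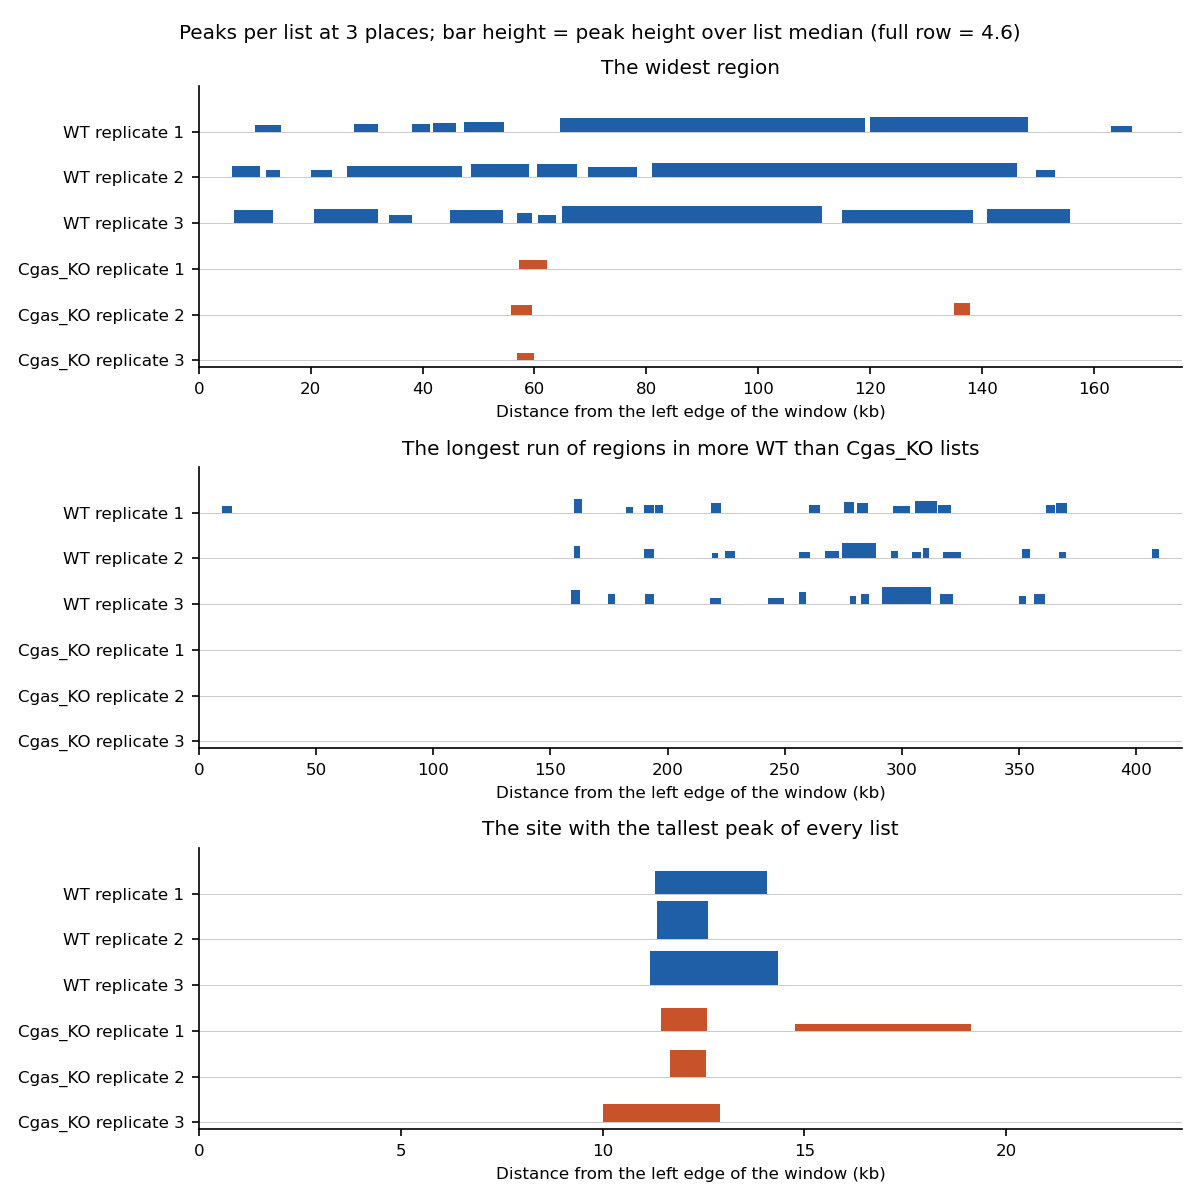
Peaks per list at 3 places, against distance from the left edge of each window in kb, with bar height giving peak height over the list median. In the top window WT peaks of up to 65312 bp fill the widest region and Cgas_KO lists hold 1 or 2 peaks of at most 5051 bp. The middle window shows the run of 19 regions with 0 Cgas_KO peaks, and the bottom one the site at which all 6 lists have their tallest peak of the stretch.

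A single site was tall and present in every list. Region chr12:21159213-21163569, 4357 bp wide, held the tallest peak of the stretch in each of the 6 lists. Its heights were 2.71, 4.54 and 4.0 list medians in WT replicates 1, 2 and 3 and 2.64, 3.15 and 2.18 in Cgas_KO replicates 1, 2 and 3. The groups overlapped. The positions of maximum signal lay within 50 bp of one another in the 3 WT lists and within 174 bp in all 6. No other peak of the stretch exceeded 2.15 list medians in any list. Besides the widest region it was the only member called in all 6 lists.

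Members seen in both genotypes numbered 21, 10.2% against 23.8% over the genome. Of these, 10 lay in the segment of this site, 21.0 to 21.5 Mb, which held 29 members, the most of the 12 segments. The best shared after those in 6 lists was chr12:21421179-21425569, with heights of 1.36, 1.15 and 1.92 in WT and 1.15 and 1.73 in Cgas_KO replicates 2 and 3. Region chr12:21334260-21338295 was called in 2 lists of each genotype, at 1.36 and 1.31 in WT replicates 1 and 2 and 1.43 and 0.77 in Cgas_KO replicates 1 and 2. Both lie in that segment, the one whose cover overlapped between the genotypes. Members of all 3 WT lists and 1 Cgas_KO list were chr12:19601363-19610108 (1.5, 1.54 and 1.0 in WT, 1.21 in Cgas_KO replicate 1), chr12:21364725-21369231 (0.71, 1.46 and 0.85, and 1.36) and chr12:22012786-22017936 (2.0, 1.77 and 1.69, and 0.64).

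Of the 59 members leaning to Cgas_KO, 55 (93.2%, against 83.9% over the genome) were in 1 Cgas_KO list and no WT list, 15, 15 and 25 of them in replicates 1, 2 and 3. The 2 repeated ones absent from WT were chr12:21029437-21033538, at heights of 0.77 and 1.0 in Cgas_KO replicates 2 and 3, and chr12:23900624-23904369, at 1.0 and 0.45. A further 2 had peaks in 2 Cgas_KO lists and 1 WT list. These were chr12:21338915-21345437 (0.71 and 0.62 in Cgas_KO replicates 1 and 2, 0.69 in WT replicate 3) and chr12:21463197-21470948 (0.64 and 1.27 in Cgas_KO replicates 1 and 3, 1.0 in WT replicate 1). None of the 4 exceeded 1.27, and 3 of them lay between 21.0 and 21.5 Mb, in the same segment as the tall site.

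The WT lists overlapped one another more in the stretch than in the flanks, though most of the length was not shared. Of the length covered in any WT list, 39.9% was covered in 2 or 3 of them, against 17.7% in the flanks. The Jaccard index, the length shared by 2 lists over the length covered by either, was 0.285 to 0.325 for the 3 pairs of WT lists, against 0.118 to 0.139 in the flanks. The pairs of Cgas_KO lists gave 0.0340 to 0.0488 in the stretch and 0.103 to 0.108 in the flanks. Pairs of different genotype gave 0.0147 to 0.0386 and 0.0888 to 0.137. In length, 316 kb of the stretch were covered in 2 or 3 WT lists and in no Cgas_KO list, and 7.35 kb in 2 or 3 Cgas_KO lists and in no WT list. These values include the widest region and rise with the density of peaks, which differed here by the choice of the stretch.

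Although the WT lists shared these lengths, they rarely shared the position of the maximum. In the 19 WT-only members the maxima of the 3 WT lists spread over a median of 3232.5 bp, or 40.2% of the region's width, and 2 of 19 had them within 500 bp. In the 339 WT-only regions elsewhere the median spread was 319 bp, or 7.68% of the width, and 58.4% were within 500 bp. For the 313 Cgas_KO-only regions elsewhere it was 1885 bp and 17.6%, so wide spread was not found solely in the stretch. The WT-only members were also wider than those elsewhere (medians of 8032 and 4775 bp), and the part of width in the spread was not tested.

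**Figure D5:**
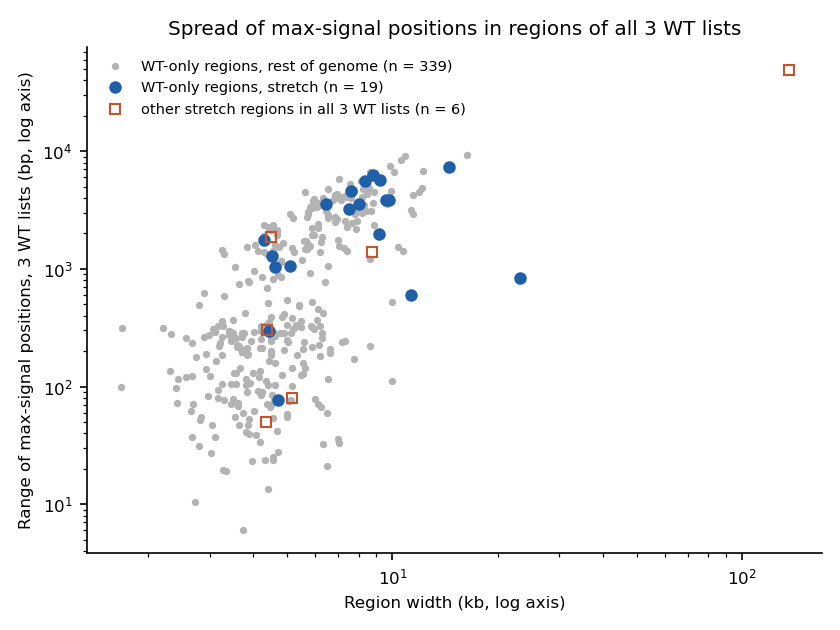
Range of the positions of maximum signal in the 3 WT lists (bp, log axis) against region width (kb, log axis), for regions called in all 3 WT lists. Blue points are the 19 WT-only members, grey points the 339 WT-only regions elsewhere, and open squares the 6 other members of all 3 WT lists. Most blue points lie above 1000 bp, while the square at 4.36 kb and 50 bp is the tall site.

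Spacing followed the blocks. The median gap between neighbouring peaks of a list was 14.8, 26.4 and 22.6 kb in WT and 115, 89.3 and 94.1 kb in Cgas_KO, without overlap. Gaps under 10 kb made up 38.8% ± 3.66 of all gaps in WT and 8.32% ± 2.96 in Cgas_KO (SD, n = 3), against 14.0% ± 3.68 and 14.9% ± 6.09 in the left flank and 15.0% ± 2.71 and 11.3% ± 2.01 in the right. Yet long empty spans remained in every list, the longest reaching 534 to 1018 kb in WT and 687 to 1024 kb in Cgas_KO. The longest span without a peak in any list was chr12:18483557-18657372, 174 kb, followed by chr12:22207727-22364781, 157 kb.

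Peaks of at least 8 kb numbered 6, 5 and 7 in the WT lists (6.66% ± 1.55 of their peaks in the stretch, SD, n = 3), against 1.90% ± 0.436 over their whole lists. The widest region held 2, 4 and 5 of them, and outside it 4, 1 and 2 remained in WT replicates 1, 2 and 3. These were 4.55%, 1.14% and 2.63% of the peaks there, against 2.16%, 1.40% and 2.14% over the lists, so WT replicate 2 lay below its list. The Cgas_KO lists had 0 in the stretch and 1.46% ± 0.782 over their whole lists.

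Width, height and signal density were also compared between the stretch and its flanks within each library, a contrast that does not set the genotypes against each other. The 3 tests were two-sided exact sign-flip permutation tests over the 6 libraries, whose smallest p is 0.0312, with Benjamini-Hochberg adjustment over the 3. The median peak of the stretch was wider by 0.10 ± 0.10 on the log2 scale (SD, n = 6), in 5 of 6 libraries, which did not pass (exact p = 0.0625, adjusted 0.188). Median height differed by -0.08 ± 0.16 on the log2 scale (SD, n = 6, exact p = 0.375, adjusted 0.5) and signal per bp by -0.03 ± 0.09 (SD, n = 6, exact p = 0.5, adjusted 0.5). The height ratio was 0.11, 0 and -0.05 in WT replicates 1, 2 and 3 and -0.26, 0 and -0.29 in Cgas_KO replicates 1, 2 and 3. These tests pool the genotypes and do not show how they differ.

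With the mean of log2 values in place of the median, height was lower in the stretch by -0.16 and signal per bp by -0.10, in both cases with an exact permutation p of 0.0312 and an adjusted p of 0.0469. The call on height and signal density differed with the summary used. The tallest peak was higher in the right flank than in the stretch in each of the 6 lists. In the left flank it was lower than in the stretch in WT replicate 2 (4.23 against 4.54) and Cgas_KO replicate 2 (2.69 against 3.15).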

How the data were processed

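CTCF CUT&RUN peak lists of 6 libraries were used, grouped by the genotype in their titles. The submitters' processing notes name Bowtie2, a read aligner, and SEACR 1.3, a peak caller, and each library has its own list. No source here states the scaling or a control library. The authors deposited the total and the maximum signal of each peak. The notes name mm10 and mm39, and the sequence names in the files belong to mm39. Positions count from 1.

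Peaks on chromosomes 1 to 19, X and Y were merged at an overlap of 1 bp. A region counted as called in a list if any of that list's peaks fell in it. Maximum signal was divided by the list's median. Below 200 steps, 100% of maxima were whole multiples of the list's step, to within 0.01 of it. The steps' meaning and read depth are unknown, so counting intervals are left out, and 3 libraries per group limit the precision.

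Members, definitions and named regions were chosen with earlier results of these data known. The bins, runs and peaks of 8 kb were chosen after the data were seen. Named were the regions in all 6 lists, in all 3 WT lists, in at least 2 Cgas_KO lists with a lean to that genotype, and the widest, tallest and longest. Regions of 1 Cgas_KO list were given by counts, which departs from the rule as first written. Region chr12:21334260-21338295 was named after its values were seen. Merging, runs and the sign-flip test were tested on simulated lists. Work was done in Python 3.11.15 (pandas 2.3.3, numpy 2.4.6, scipy 1.17.1), with plots from matplotlib 3.10.9. Alternatives were merging within 500 bp, lists matched to the shortest, the top 50% by total signal, 50% cover of a region, another comparison area, midpoints, means and leaving out each library.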

Additional observations from a re-analysis of the deposited data

Results flagged for a closer look

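Signal per bp, the total signal of a peak over its width, lay on opposite sides of the flanks in the genotypes. The log2 ratio of the medians, stretch over flanks, was 0.09, 0.04 and 0.02 in WT replicates 1, 2 and 3 and -0.12, -0.13 and -0.07 in Cgas_KO replicates 1, 2 and 3, so that WT exceeded Cgas_KO by 0.16. This came to attention because every library of a genotype moved one way and every library of the other the opposite way. The difference was not tested, as the stretch was chosen on a difference between these genotypes. With means of log2 values the ratio fell below 0 in 6 of 6 libraries.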

How the results depend on the processing

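The alternatives for peaks, cover and bins were chosen after the data were examined. When each list was limited to the 50% of peaks with the most total signal, the stretch held 110 regions, 87 WT-leaning ones (85.1% of them in runs of at least 3) and 11 WT-only ones, and WT exceeded Cgas_KO by 46.3 peaks and 5.15 percentage points of cover (61 and 5.87 with all peaks). Fewer peaks enter by construction. Asking peaks to cover 50% of a region left 11 WT-only regions, and bins of 200 kb gave 43.3% of bins with every WT list above every Cgas_KO list (30% at 100 kb). Without the widest region the cover difference was 4.08. On the log2 scale, height was lower in the stretch by -0.21 and signal per bp by -0.17 in the top 50% (exact permutation p = 0.0312, adjusted 0.0469 for both), and by -0.16 and -0.10 with means (same p). The causes of these shifts were not tested.

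Leaving out each library gave 181 to 194 regions, 19 to 37 WT-only regions, 117 to 140 WT-leaning regions with 76.3 to 87.9% of them in runs, 59 to 64.5 peaks, 5.71 to 6.0 points of cover and 33.3 to 36.7% of bins. WT-only regions numbered 37 without WT replicate 2 and 32 without WT replicate 3, since 2 lists then suffice. Log2 ratios were 0.08 to 0.14 for width, -0.12 to -0.04 for height and -0.05 to -0.01 for signal per bp. No mean over libraries changed sign in the alternatives run, though signal per bp in the 3 WT libraries went from above to below 0 with means of log2 values. No paired analysis was possible because no difference between the genotypes was tested, the stretch having been chosen on it. Unknown read depth, and a signal scale that differed with genotype, limit what an absent call shows.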
